A study of Mus musculus with 11 samples.

Results

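Transcripts of 41 genes that neurons use for synapses, axons and excitability were described in RNA sequencing data of CD4+ T cells from kidney. The set was a list of symbols among the 35814 symbols of the count table, with 10 genes of excitatory neurons, 3 of inhibitory neurons and 28 used by neurons in general. It was drawn up because transcripts of this kind stood out in these same libraries, so that the levels and differences of its members are a description and carry no test. CD4+ T cells were obtained from kidneys of C57BL/6 mice on day 2 after ischemia reperfusion injury (IRI), with 45 min of ischemia in male mice aged 8 to 12 weeks. There were 3 libraries of CD4cre controls, 5 labelled CD4IKK1Δ and 3 labelled CD4NIKΔ, all numbered as biological replicates, and all animals had undergone IRI. CD4cre animals carry a Cre recombinase under the CD4 promoter, and their genotype is labelled as wild type. The other groups carry the same Cre with a floxed *Chuk* gene, which encodes IKK1, or a floxed *Map3k14* gene, which encodes NIK, so that deletion is limited to cells in which the CD4 promoter is or was active. Cells had been enriched with an isolation kit and sorted by FACS, and their RNA was amplified with the SMARTer kit before sequencing. The study gives as many mice per group as there are libraries.

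Neurons pass signals at synapses, where vesicles loaded with transmitter fuse with the membrane through SNARE proteins after calcium entry, and receptors on the next cell respond. Excitatory neurons load glutamate through vesicular glutamate transporters, whereas inhibitory neurons make GABA with glutamate decarboxylases and load it through another transporter. Axons hold neurofilaments and microtubules that few other cells build from the same subunits, and outside the nervous system most of these genes are silenced or weakly transcribed. Kidney and lymphoid tissue receive sympathetic and sensory nerve fibres, whose cell bodies lie in ganglia outside the organ, and T cells themselves are not known for synaptic vesicle genes.

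Library totals lay between 15751632 and 25737046 estimated counts, so that 3 counts, used as the floor of detection, stood for 0.117 to 0.190 CPM, the usual unit of counts scaled to the library total. The T cell identity given by the labels was checked first with the transcripts of the T cell receptor constant regions (*Trac*, *Trbc1* and *Trbc2* together). In the order of the replicate numbers, CD4cre libraries held 35820, 22741 and 12558 such counts, against 41, 868, 11413, 5277 and 5644 in those labelled CD4IKK1Δ and 60124, 111648 and 90324 in those labelled CD4NIKΔ. Replicates 1 and 2 labelled CD4IKK1Δ thus held few T cell receptor transcripts and stood apart from the other 9 libraries. *Chuk* measured 22.9 ± 10.3 CPM (SD, n = 3) in CD4cre, 20.8 ± 4.97 CPM (SD, n = 5) in CD4IKK1Δ and 31.3 ± 8.03 CPM (SD, n = 3) in CD4NIKΔ, and *Map3k14* measured 18.6 ± 2.73 CPM in CD4cre, 6.14 ± 2.99 CPM in CD4IKK1Δ and 21.1 ± 8.52 CPM (SD, n = 3) in CD4NIKΔ. Neither targeted gene was thus lower in CPM in its own deletion group than in CD4cre beyond the spread. Since the values sum all transcripts of a gene, they do not resolve floxed exons. They are also not scaled to the T cell RNA of a library. The summed level of 15 T cell genes had means of 2548 CPM in CD4cre, 629 CPM in CD4IKK1Δ and 10231 CPM in CD4NIKΔ. Whether either gene was deleted in the T cells was thus not tested. The group names below are those of the labels.

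Neuronal and synaptic transcripts were present in every library and took a larger part of the counts where the label was CD4IKK1Δ or CD4cre than where it was CD4NIKΔ. The 41 genes together made up 3.10, 3.56 and 3.83% of the estimated counts in the CD4cre libraries. In the libraries labelled CD4IKK1Δ they made up 4.30, 4.46, 4.21, 4.20 and 4.19%, and in those labelled CD4NIKΔ 2.06, 1.22 and 0.905%. The 3 groups did not overlap, with means of 3.50% ± 0.369 (SD, n = 3), 4.27% ± 0.114 (SD, n = 5) and 1.40% ± 0.598 (SD, n = 3), which is a 1.22-fold ratio of CD4IKK1Δ to CD4cre, 2.505-fold of CD4cre to CD4NIKΔ and 3.06-fold of CD4IKK1Δ to CD4NIKΔ. Within a library the 95% Wilson interval was narrow, for example 0.9001 to 0.909% in the library with the lowest share, which holds counting error alone, because several reads can stem from the same amplified molecule. Without replicates 1 and 2 labelled CD4IKK1Δ the mean of that group was 4.20%.

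T cell receptor counts ran in the opposite order of the groups. *Trac* had 10190, 5815 and 3515 counts in CD4cre, 1, 228, 2408, 1347 and 2388 in CD4IKK1Δ and 23227, 40733 and 35010 in CD4NIKΔ libraries. Inside CD4IKK1Δ the highest and lowest share of neuronal transcripts differed by a ratio of 1.06, and the libraries with 1 and 228 *Trac* counts held the highest shares, at 4.30 and 4.46%. Inside CD4cre the order was also inverse, with a share of 3.10% at 10190 *Trac* counts, 3.56% at 5815 and 3.83% at 3515. Inside CD4NIKΔ the library with the fewest *Trac* counts held the highest share, and the other two did not follow the inverse order. The 3 groups differed in the summed level of 15 T cell genes as well, with 1757 to 3186 CPM in CD4cre, 34.0 to 1514 CPM in CD4IKK1Δ and 8302 to 11358 CPM in CD4NIKΔ. In bulk samples, fewer cells of a type and less RNA per cell cannot be told apart, and the part of the T cell content in the neuronal shares was not tested.

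**Figure D1:**
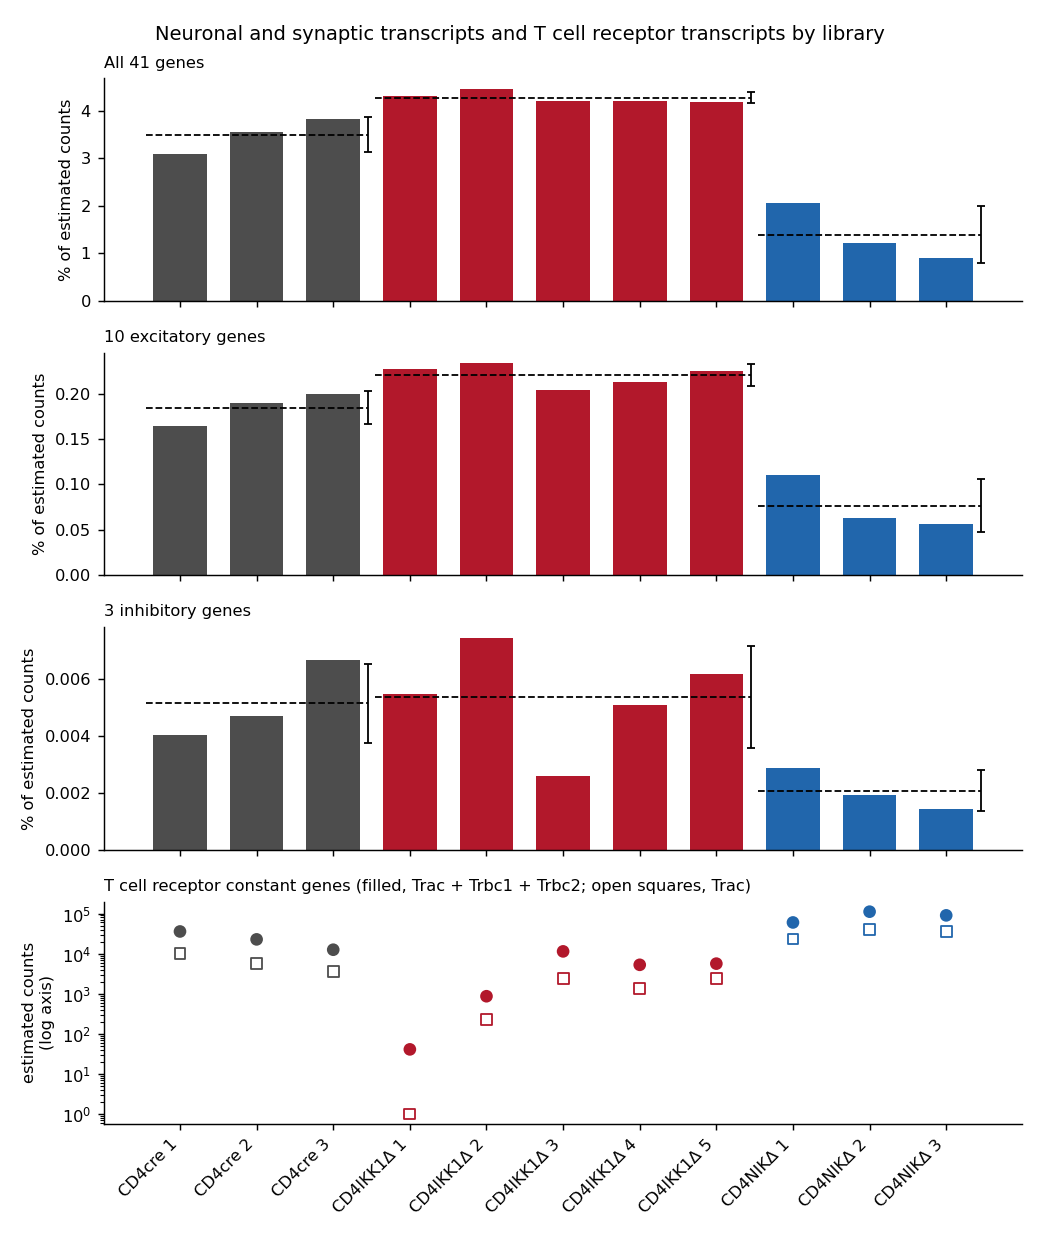
Share of the estimated counts of each library taken by all 41 neuronal genes, the 10 excitatory genes and the 3 inhibitory genes (bars, in percent, with the group mean as a dashed line and its SD as an error bar), and estimated counts of T cell receptor constant genes on a log axis. All 5 CD4IKK1Δ libraries lie between 4.19 and 4.46%, with the highest shares in the libraries with the fewest T cell receptor counts, and all 3 CD4NIKΔ libraries lie below the lowest CD4cre library.

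The shares were carried by few genes. Pan-neuronal genes held 93.7 to 95.1% of the neuronal counts of a library, with 3.31% ± 0.349 of all counts in CD4cre, 4.04% ± 0.105 in CD4IKK1Δ and 1.32% ± 0.568 in CD4NIKΔ. The excitatory genes took 0.185% ± 0.0184, 0.220% ± 0.0118 and 0.0766% ± 0.0293 of all counts, again with no overlap between the groups. The inhibitory genes took 0.00513% ± 0.00137, 0.00535% ± 0.00179 and 0.00207% ± 0.000725, and here replicate 3 labelled CD4IKK1Δ, at 0.00257%, lay within the range of CD4NIKΔ. *Nnat*, *Olfm1* and *Rtn1* alone supplied 61.5 to 64.5% of the neuronal counts, and by mean CPM over all libraries they ranked 5, 10 and 9 among the 35814 symbols, a ranking that is not scaled for transcript length.

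The mix of neuronal transcripts was similar in all libraries even where their amount was not. Across the 41 genes, Spearman's rho between the counts of 2 libraries ran from 0.945 to 0.997 over the 55 pairs, with a median of 0.988 for 16 pairs within a group and 0.986 for 39 pairs between groups. These values are across genes, which are no replicates and differ widely in abundance, and all pairs share that order of abundance. Of 29 members with at least 100 counts in every library, 23 kept a share of the neuronal counts with a coefficient of variation under 20% over the 11 libraries, and 16 of them under 10%. *Olfm1* was the steadiest of these with 18.5 to 20.4% of the neuronal counts, although its own level differed 5.24-fold between the highest and the lowest library. *Nrgn* varied more, from 0.237 to 0.758%.

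Levels of different genes were compared per kilobase of the canonical transcript. In CD4cre libraries *Nnat* led with a mean of 6135 CPM per kilobase, followed by *Olfm1* with 2490.4, *Rtn1* with 1878, *Gap43* with 1489.8 and *Uchl1* with 1021. These 5 genes kept this order in all 3 group means. The synaptic and receptor genes lay lower, with 239.7 for *Syn2*, 197 for *Slc17a7* and 46.9 for *Gria2* in CD4cre. At the other end, 9 members had a mean under 10 CPM over all libraries. They were *Camk2a*, *Slc32a1*, *Syp*, *Vamp2*, *Stx1a*, *Cplx1*, *Sncb*, *Mapt* and *Ncdn*, several of which encode main proteins of the brain synapse, and *Cplx1*, a complexin that clamps vesicle fusion, had 0 counts in all 11 libraries, which allows up to the floor of 3 counts in each.

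**Figure D2:**
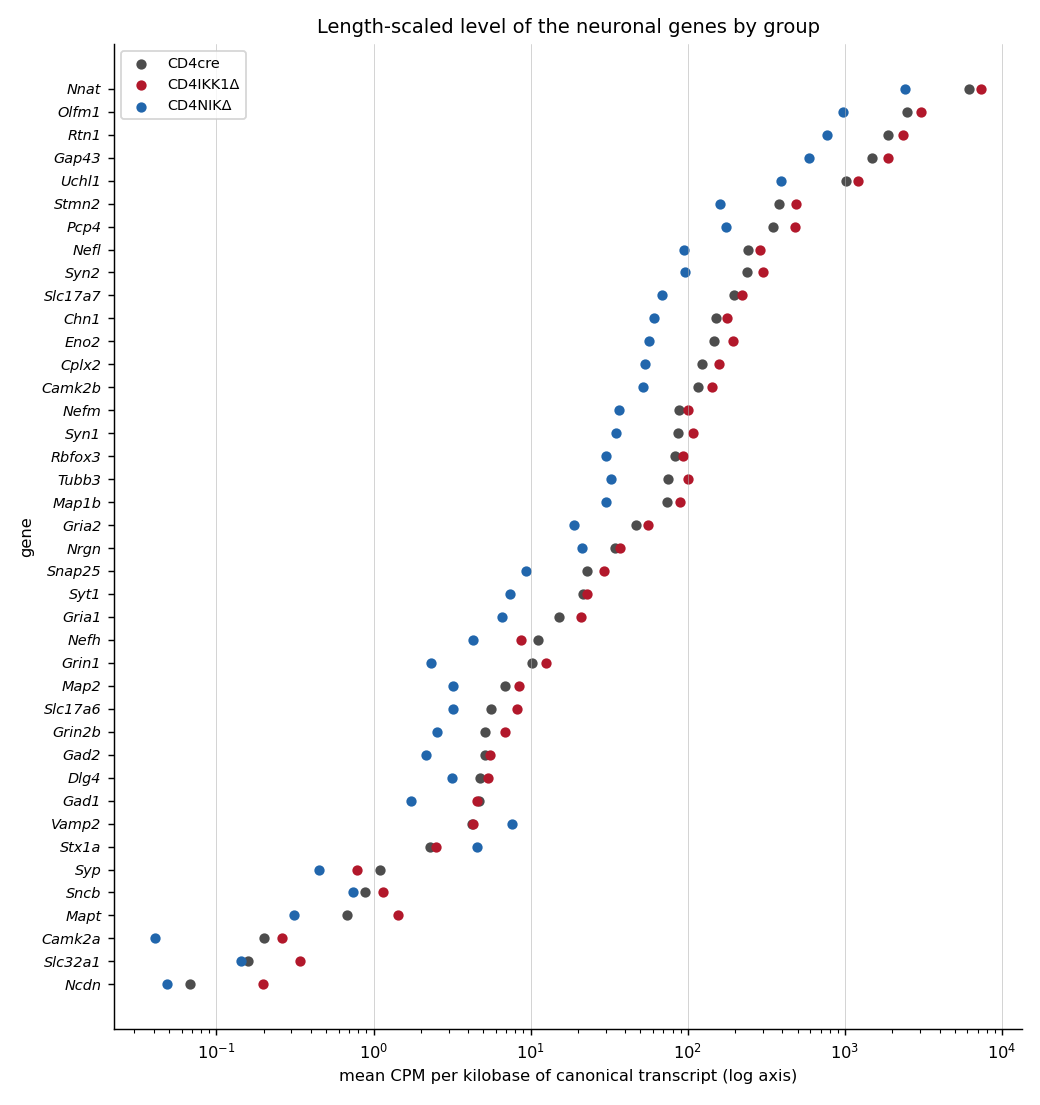
Mean level of each neuronal gene in CD4cre, CD4IKK1Δ and CD4NIKΔ libraries in CPM per kilobase of canonical transcript, on a log axis, ordered by the CD4cre mean (*Cplx1*, at 0 in all libraries, is left out). *Nnat* lies highest with 6135, 7360.0 and 2410.2, and most genes show the CD4NIKΔ point to the left of the others, with *Vamp2* and *Stx1a* reversed.

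**Figure D3:**
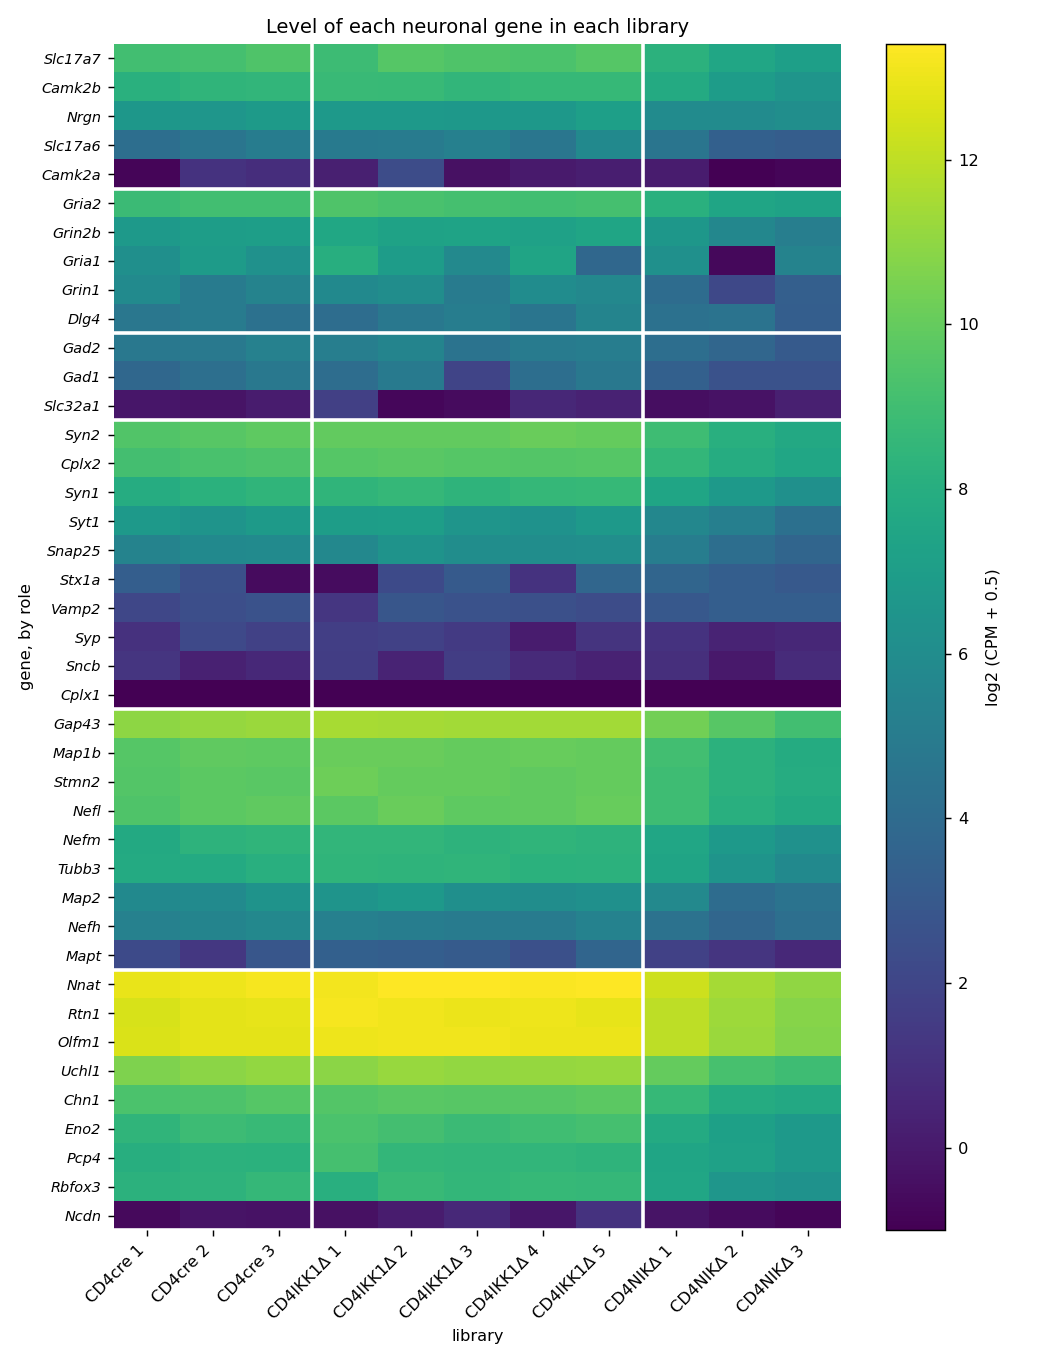
Level of each of the 41 neuronal genes (rows, by role and then by mean) in each of the 11 libraries (columns), coloured by log2 (CPM + 0.5). The 3 CD4NIKΔ columns are darker in most rows, down to 2085 CPM for *Nnat*, and *Gria1*, *Gad1* and *Stx1a* vary between libraries of the same group.

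The pan-neuronal genes that dominated the counts are described first. *Nnat* encodes neuronatin, a small membrane protein from an imprinted gene nested in the *Blcap* locus, and lies on chromosome 2 from 157401879 to 157404573 of GRCm39. It measured 7658, 8298 and 9591 CPM in CD4cre, 8959, 10856, 10467, 10296 and 10501 CPM in CD4IKK1Δ and 5080.1, 2871 and 2085 CPM in CD4NIKΔ libraries. The CD4NIKΔ values were all lower than the lowest CD4cre value, whereas CD4IKK1Δ replicate 1 lay within the range of CD4cre. Exons of *Nnat* and *Blcap* overlap at their ends on opposite strands, and the strand setting of the counting was not stated. *Olfm1*, a secreted olfactomedin protein of neurons on chromosome 2 from 28083004 to 28120748, measured 6197, 7086 and 7315 CPM in CD4cre, 8588, 8773, 8600.1, 8177 and 7990.3 CPM in CD4IKK1Δ and 3940.2, 2396 and 1674 CPM in CD4NIKΔ. *Rtn1*, a reticulon of the endoplasmic reticulum on chromosome 12 from 72258517 to 72455828, measured 5974, 7116 and 7402 CPM, 9649, 8684, 8069, 8267 and 7628 CPM and 4079, 2467 and 1803 CPM in the same order of groups. For both genes the groups did not overlap, with CD4IKK1Δ highest and CD4NIKΔ lowest.

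The further neuronal proteins of this class followed the same order with smaller levels. *Uchl1*, a ubiquitin hydrolase abundant in neurons, had means of 1855 ± 287 CPM in CD4cre (SD, n = 3), 2192 ± 167 CPM in CD4IKK1Δ (SD, n = 5) and 709 ± 284 CPM in CD4NIKΔ (SD, n = 3). *Chn1*, a Rac GTPase-activating protein, measured 635 to 777 CPM, 764 to 866 CPM and 203 to 405 CPM, and *Eno2*, the neuronal enolase, 344 to 473 CPM, 449.9 to 638 CPM and 108 to 222 CPM. CD4cre and CD4IKK1Δ overlapped for all 3 of these genes and CD4NIKΔ lay below both. *Rbfox3*, which encodes the splicing factor detected by antibodies to NeuN, measured 301, 311 and 384 CPM in CD4cre, 274, 419, 378, 406 and 385 CPM in CD4IKK1Δ and 187, 94.2 and 80.6 CPM in CD4NIKΔ, with CD4IKK1Δ replicate 1 lower than the others of its group. *Pcp4*, a calmodulin-binding peptide, measured 262, 307 and 293 CPM, 568, 373, 355, 359 and 331 CPM and 175, 149.6 and 108 CPM, and here the same replicate was the highest, on exons partly shared with *Gm49948* on the same strand. *Ncdn*, which encodes neurochondrin, had between 1 and 35 counts in every library and shares exonic bases with *AU040320* on the opposite strand, so that its values stay uncertain.

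Axon and cytoskeleton genes formed the next group. *Gap43*, a growth cone protein on chromosome 16 from 42068805 to 42161086, measured 2011, 2279 and 2378 CPM in CD4cre, 2985, 2819, 2709, 2687 and 2723 CPM in CD4IKK1Δ and 1316, 804 and 523 CPM in CD4NIKΔ. *Stmn2*, a stathmin that regulates axonal microtubules, measured 737, 869 and 848 CPM, 1191, 1012, 1026, 965 and 1025 CPM and 482, 301 and 244 CPM. Neither gene overlapped between the groups, and CD4IKK1Δ was highest. *Map1b*, a microtubule protein of growing axons, ran from 768 to 957 CPM in CD4cre, 1024 to 1126 CPM in CD4IKK1Δ and 235 to 524 CPM in CD4NIKΔ, and *Tubb3*, the neuronal beta-tubulin, from 220.4 to 269 CPM, 294 to 347 CPM and 57.2 to 168 CPM, also without overlap. *Map2*, a dendritic microtubule protein, reached 66.6 ± 15.3 CPM, 82.4 ± 18.1 CPM and 30.9 ± 20.1 CPM (SD, n = 3, 5 and 3). *Mapt*, which encodes tau, was low at 4.13, 2.00 and 6.74 CPM in CD4cre, 10.3, 9.26, 8.29, 5.14 and 12.5 CPM in CD4IKK1Δ and 2.99, 1.86 and 1.10 CPM in CD4NIKΔ.

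The 3 neurofilament subunits, which assemble into the filaments that set axon calibre, were unequal. *Nefl*, the light chain, measured 689, 861 and 931 CPM in CD4cre, 877, 1107, 926, 956 and 1072 CPM in CD4IKK1Δ and 479.9, 270.1 and 217 CPM in CD4NIKΔ. *Nefm*, the medium chain, had 292 ± 66.0 CPM, 337 ± 18.7 CPM and 122 ± 52.3 CPM (SD, n = 3, 5 and 3). *Nefh*, the heavy chain, measured 40.1, 44.4 and 51.9 CPM in CD4cre, 38.4, 33.4, 32.0, 31.5 and 41.3 CPM in CD4IKK1Δ and 21.1, 13.2 and 18.3 CPM in CD4NIKΔ, and was thus 1 of 3 members with a lower fitted value in CD4IKK1Δ than in CD4cre at a log2 fold change of −0.33 (SE 0.18). Exons of *Nefl* and *Nefm* overlap on opposite strands, as do those of *Nefh* and *Ap1b1*, which leaves their counts uncertain.

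Promoter sequences of 4 members are shown because the levels of most members varied together over these libraries and because a known repressor of neuronal genes, REST, recognizes a bipartite element in promoters of such genes. The 250 bases before the RefSeq start were taken from build GRCm38.p6, 5′ to 3′ on the strand of the gene, with matches to either 8-base end of the REST element in capitals. By exact match *Syn1* and *Tubb3* hold the left of them, *Gria2* holds the right, and *Nnat* is shown as the most abundant member.
Syn1 (chrX:20920919-20921168, minus strand): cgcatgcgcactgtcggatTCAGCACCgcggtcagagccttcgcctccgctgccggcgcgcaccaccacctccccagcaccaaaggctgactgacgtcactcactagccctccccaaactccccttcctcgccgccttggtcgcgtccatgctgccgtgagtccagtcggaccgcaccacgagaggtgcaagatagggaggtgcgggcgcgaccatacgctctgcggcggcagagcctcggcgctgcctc
Tubb3 (chr8:123411303-123411552, plus strand): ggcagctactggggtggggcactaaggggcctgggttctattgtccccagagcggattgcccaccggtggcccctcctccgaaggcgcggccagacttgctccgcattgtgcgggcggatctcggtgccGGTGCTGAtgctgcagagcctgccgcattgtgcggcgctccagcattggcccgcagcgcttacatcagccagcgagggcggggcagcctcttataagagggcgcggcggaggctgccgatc
Gria2 (chr3:80802836-80803085, minus strand): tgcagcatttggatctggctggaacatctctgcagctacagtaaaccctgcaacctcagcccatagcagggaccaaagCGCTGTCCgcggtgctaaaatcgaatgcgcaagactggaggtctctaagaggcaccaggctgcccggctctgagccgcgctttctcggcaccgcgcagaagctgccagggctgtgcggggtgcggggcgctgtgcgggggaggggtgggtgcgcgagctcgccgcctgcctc
Nnat (chr2:157559828-157560077, plus strand): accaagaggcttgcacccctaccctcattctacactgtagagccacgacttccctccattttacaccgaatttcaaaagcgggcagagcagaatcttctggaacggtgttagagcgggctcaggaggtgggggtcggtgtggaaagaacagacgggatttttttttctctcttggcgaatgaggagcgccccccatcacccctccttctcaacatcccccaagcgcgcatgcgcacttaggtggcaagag

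Both strands were searched for TCAGCACC and GGACAGCG, so that the capitals in *Tubb3* and *Gria2* are the reverse complements, and the 2 motifs do not overlap each other. RefSeq promoters were matched by symbol for 30 of the 41 members. TCAGCACC was in 2 of them (*Syn1* and *Tubb3*, 6.67%) and in 1.49% of 27025 genes with a promoter. GGACAGCG was in 3 of them (*Gad2*, *Gria2* and *Ncdn*, 10%) and in 1.17% of the 27025 genes. With 2 and 3 genes these are descriptions of the windows, and binding was not tested. Only exact matches were counted, so that a motif with a mismatch was not found. *Rest* itself measured 3.20 to 13.0 CPM in CD4cre, 0 to 7.24 CPM in CD4IKK1Δ and 9.92 to 21.4 CPM in CD4NIKΔ, so that CD4cre overlapped with both other groups.

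Among genes of excitatory transmission, the vesicular glutamate transporter *Slc17a7* measured 521, 581 and 698 CPM in CD4cre, 475, 775, 684, 646 and 785 CPM in CD4IKK1Δ and 302, 184 and 139 CPM in CD4NIKΔ. CD4cre and CD4IKK1Δ overlapped, and CD4NIKΔ was lower in all 3 libraries. Its relative *Slc17a6*, which is used by other glutamate neurons than *Slc17a7*, was scarcer with 18.1 to 32.9 CPM, 24.9 to 57.2 CPM and 8.95 to 23.9 CPM, and the ratio of *Slc17a7* to *Slc17a6* counts lay between 12.6 and 28.8 in all libraries. *Camk2b*, a subunit of the calcium- and calmodulin-dependent kinase, measured 283, 346 and 352 CPM in CD4cre, 431, 422, 354, 409 and 400.1 CPM in CD4IKK1Δ and 226, 125 and 90.6 CPM in CD4NIKΔ without overlap, but shares exonic bases with *Ykt6* on the opposite strand. The partner subunit *Camk2a* had at most 87 counts in any library. *Nrgn*, a postsynaptic calmodulin-binding protein, measured 99.6, 95.02 and 117 CPM in CD4cre, 109.7, 106, 102, 104 and 139 CPM in CD4IKK1Δ and 60.7, 62.1 and 68.6 CPM in CD4NIKΔ, with a log2 fold change against CD4cre of −0.57 (SE 0.19) in CD4NIKΔ, beside −1.41 (SE 0.28) for *Slc17a7*. Part of the exons of *Nrgn* overlaps *Vsig2* on the opposite strand.

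Glutamate receptor genes differed from each other. *Gria2*, which encodes the AMPA receptor subunit that limits calcium flow, measured 453, 537 and 526 CPM in CD4cre, 703, 624, 577, 537 and 581 CPM in CD4IKK1Δ and 279, 179 and 155 CPM in CD4NIKΔ, without overlap. *Gria1*, another AMPA receptor subunit, measured 71.1, 121 and 76.1 CPM in CD4cre, 257, 122, 54.3, 169 and 13.7 CPM in CD4IKK1Δ and 73.3, 0.109 and 42.5 CPM in CD4NIKΔ, so that libraries of the same group differed more than the groups. *Grin1*, the obligatory NMDA receptor subunit, measured 59.1, 31.2 and 42.6 CPM, 56.6, 65.3, 31.6, 62.8 and 53.2 CPM and 16.6, 3.81 and 9.74 CPM in the same order of groups. Its CD4NIKΔ values lay below all others, while CD4cre and CD4IKK1Δ overlapped. *Grin2b*, the NMDA receptor subunit of immature and forebrain neurons, measured 110.0 to 132 CPM in CD4cre, 150.5 to 188 CPM in CD4IKK1Δ and 35.4 to 99.1 CPM in CD4NIKΔ, without overlap. *Dlg4*, the postsynaptic scaffold PSD-95, overlapped between all groups with 26.0 ± 5.59 CPM, 29.2 ± 10.55 CPM and 17.3 ± 6.70 CPM (SD, n = 3, 5 and 3).

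Genes of inhibitory transmission were low. *Gad2*, a glutamate decarboxylase of nerve terminals, measured 26.3, 27.8 and 39.8 CPM in CD4cre, 34.9, 44.4, 22.2, 31.8 and 34.1 CPM in CD4IKK1Δ and 18.2, 13.2 and 7.87 CPM in CD4NIKΔ. *Gad1*, the other glutamate decarboxylase, measured 13.5, 18.8 and 26.2 CPM, 17.0, 29.9, 3.34, 17.9 and 26.8 CPM and 10.2, 5.69 and 5.80 CPM. For *Gad1* replicate 3 labelled CD4IKK1Δ was the lowest of all 11 libraries, and for *Gad2* it was the lowest of its group. *Slc32a1*, the vesicular GABA transporter, had between 2 and 45 counts per library.

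Synaptic vesicle and SNARE genes fell into an abundant and a scarce set. *Syn1*, which encodes a synapsin that tethers vesicles, measured 239.7, 299 and 349 CPM in CD4cre, 347, 384, 329, 381 and 397 CPM in CD4IKK1Δ and 175, 108 and 74.0 CPM in CD4NIKΔ. *Syn2*, a further synapsin, measured 716, 822 and 897 CPM, 988, 976, 985, 1092 and 1024 CPM and 492, 268 and 209.7 CPM, and *Cplx2*, a complexin, had 609 ± 66.4 CPM, 784 ± 32.0 CPM and 265 ± 95.1 CPM (SD, n = 3, 5 and 3). The last 2 of these genes did not overlap between any groups, although part of the exons of *Syn2* overlaps *Timp4* on the opposite strand. *Snap25*, a SNARE of the plasma membrane, measured 42.2, 57.3 and 58.1 CPM, 53.3, 84.4, 65.6, 65.3 and 67.9 CPM and 33.3, 17.9 and 12.7 CPM, and *Syt1*, the calcium sensor of release, measured 105, 89.0 and 116 CPM, 128, 134, 90.1, 82.3 and 112 CPM and 50.7, 36.04 and 19.2 CPM, each with CD4NIKΔ below both other groups. The partner SNAREs did not follow. *Vamp2*, the SNARE of the vesicle, measured 3.76, 4.93 and 5.77 CPM in CD4cre, 1.93, 6.84, 5.74, 5.19 and 4.61 CPM in CD4IKK1Δ and 7.28, 9.35 and 9.28 CPM in CD4NIKΔ, with CD4NIKΔ above all other libraries. *Stx1a*, a syntaxin that pairs with SNAP-25, measured 9.38, 5.27 and 0.172 CPM, 0.199, 4.22, 7.80, 1.69 and 12.9 CPM and 12.5, 9.33 and 7.64 CPM and overlapped between the groups. *Syp* and *Sncb*, a vesicle membrane protein and a synuclein, stayed at or below 4.03 and 2.57 CPM in all libraries.

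Fold changes were then taken from fits over all genes with edgeR's quasi-likelihood test, on counts normalized by TMM. A gene was called where its FDR was under 0.05 and its fold exceeded 2. Since the members were chosen on these libraries, the counts below describe them, and nothing is read from them. Both comparisons with CD4cre use the same 3 control libraries, so that their values are set side by side and not compared as independent results.

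Between CD4IKK1Δ and CD4cre, 40 members passed the expression filter. Their fitted values were over 0 for 37 and under 0 for 3 (*Nefh*, *Gad1* and *Syp*), with a median log2 fold change of 0.33, beside 0.02 over the 15653 genes tested. None was called by edgeR, where the background of genes called higher was 0%, and none of the 35 with an adjusted p in DESeq2, where it was 0.354% (41 of 11585 genes). At an unadjusted p under 0.05, 19 of the 40 were higher, beside 7.65% of all genes tested, and 12 had CPM in CD4IKK1Δ above all CD4cre values, beside 4.94%. The split was 35 over and 5 under 0 without CD4cre replicate 1. Without replicates 1 and 2 labelled CD4IKK1Δ it was 32 and 7 of the 39 members tested, 17 of 40 did not overlap, beside 8.76%, none was called, beside 0%, and the median was 0.26. The differences were small and alike for most abundant members, with 0.29 (SE 0.07) for *Nnat*, 0.33 (SE 0.07) for *Olfm1*, 0.34 (SE 0.10) for *Rtn1* and 0.36 (SE 0.08) for *Gap43*. *Mapt* at 1.12 (SE 0.51), *Slc32a1* at 1.15 (SE 1.22) and *Ncdn* at 1.54 (SE 1.11) had larger values on few counts.

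Between CD4NIKΔ and CD4cre, 38 members passed the filter and 36 had fitted values under 0, with a median log2 fold change of −1.18, beside −0.02 over the 15209 genes tested. Of the members, 22 were called lower, beside 6.99% of all genes tested, and 29 had all CD4NIKΔ values below all CD4cre values, beside 25.6%. Over all genes 1586 were called higher and 1063 lower, or 1382 and 1438 with library size alone in place of TMM. The genes called lower dropped to 117 without CD4cre replicate 2, 79 without CD4cre replicate 3, 66 without CD4NIKΔ replicate 2 and 60 without CD4NIKΔ replicate 3. The genes called higher were then 884, 780, 852 and 614. The background of 6.99% itself thus fell when any 1 of these libraries was left out. The called members were 4 excitatory and 18 pan-neuronal genes. *Nnat* had −1.23 (SE 0.32), *Olfm1* −1.24 (SE 0.30), *Slc17a7* −1.41 (SE 0.28) and *Grin1* −2.01 (SE 0.52). The 2 members with fitted values over 0 were *Vamp2* at 0.96 (SE 0.41) and *Stx1a* at 1.10 (SE 0.97). The number of members called fell likewise, to 1 without CD4cre replicate 2 and to 0 without CD4cre replicate 3, CD4NIKΔ replicate 2 or CD4NIKΔ replicate 3. The median stayed between −1.53 and −0.96 whichever library of these groups was left out.

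Between CD4IKK1Δ and CD4NIKΔ, fitted with all 11 libraries, 40 members passed the filter and 38 had fitted values over 0, with a median log2 fold change of 1.496, beside 0.06 over the 16546 genes tested. Here 28 were called higher, beside 14.8% of all genes tested, and 30 did not overlap, beside 22.7%. By role, 3 of 5 glutamate transporter and excitatory-neuron genes, 3 of 5 glutamate receptor and scaffold genes, 1 of 3 GABA genes, 5 of 9 vesicle and SNARE genes, 8 of 9 axon genes and 8 of 9 other neuronal genes were called. *Nnat* had 1.51 (SE 0.22), *Gap43* 1.57 (SE 0.22), *Eno2* 1.68 (SE 0.21) and *Grin1* 2.32 (SE 0.44), whereas *Nrgn* had 0.70 (SE 0.15) and *Nefh* 0.90 (SE 0.21), below the 2-fold limit. Without replicates 1 and 2 labelled CD4IKK1Δ, 28 of 39 were called, beside 13% of all genes tested, 32 of 40 did not overlap, beside 27.4%, and the median was 1.36.

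**Figure D4:**
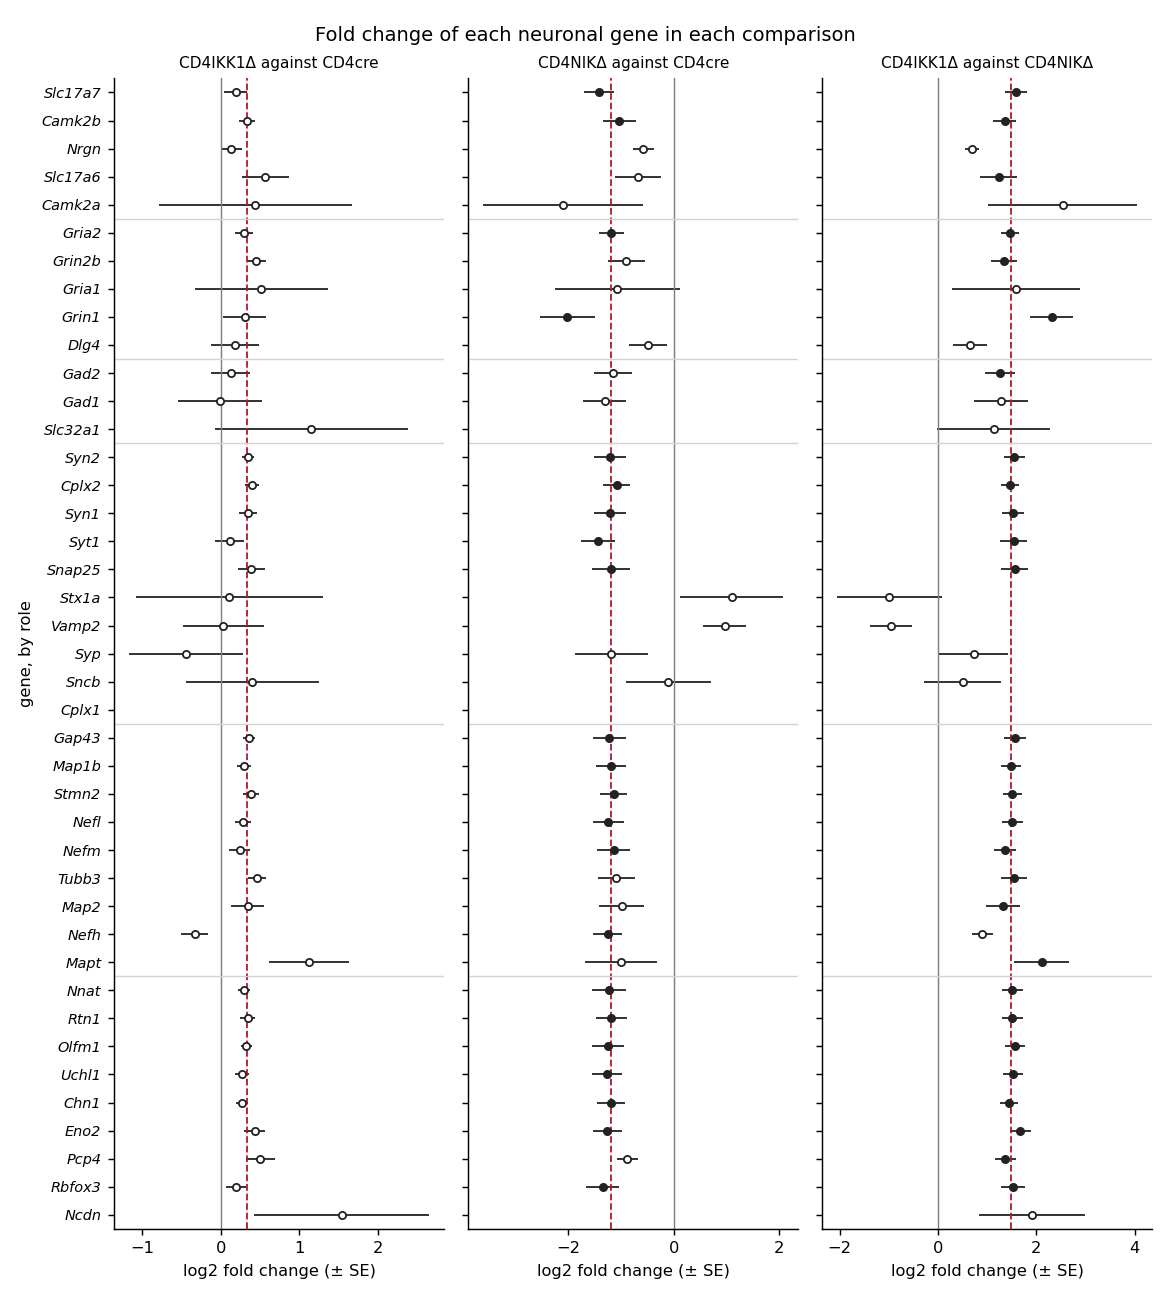
Log2 fold change of each neuronal gene (rows, by role) in the 3 comparisons, with its standard error as a bar and filled points for genes called by edgeR (FDR under 0.05 and more than 2-fold). Dashed lines mark the members' medians of 0.33, −1.18 and 1.496, around which the abundant genes lie closely, while *Vamp2* and *Stx1a* lie on the other side of 0 in the comparisons with CD4NIKΔ.

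Neuronal genes outside the 41 were examined from lists drawn up with earlier results of these data known, each with the same background of 14.8% called higher in CD4IKK1Δ than in CD4NIKΔ. Of other active zone and vesicle genes 15 of 19 tested were called higher, with a median log2 fold change of 1.501, among them the synaptotagmin gene *Syt4* at 302 to 429 CPM in CD4cre, 433 to 524 CPM in CD4IKK1Δ and 105 to 228 CPM in CD4NIKΔ. Of neuronal ion channels and pumps 16 of 20 were called (median 1.52), among them the sodium channel gene *Scn2a* at 1.44 (SE 0.25) and the chloride transporter gene *Slc12a5* at 1.54 (SE 0.27). Other transmitter receptors had 16 of 20 called (median 1.54), including the GABA-B receptor genes *Gabbr1* at 1.30 (SE 0.18) and *Gabbr2* at 1.51 (SE 0.22). Axon guidance and adhesion genes had 14 of 19 called (median 1.502), with *Epha5*, an ephrin receptor gene, at 1.46 (SE 0.18). Neuronal RNA-binding and long non-coding RNA genes had 8 of 9 called (median 1.56), with *Celf4* at 1.56 (SE 0.21). No gene of these 5 lists was called lower, and in the comparison of CD4NIKΔ with CD4cre 13 of 19, 12 of 18, 7 of 20, 9 of 19 and 6 of 9 were called lower in the same order of lists, beside 6.99% of all genes tested. These counts were at most 2 in each list without CD4cre replicate 2, CD4cre replicate 3, CD4NIKΔ replicate 2 or CD4NIKΔ replicate 3.

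*Celsr3* departed from this picture. This adhesion receptor gene of axon guidance measured 0.666, 0.777 and 0.796 CPM in CD4cre, 6.80, 15.5, 1.25, 19.7 and 17.6 CPM in CD4IKK1Δ and 0.937, 0.253 and 4.13 CPM in CD4NIKΔ, so that CD4IKK1Δ lay above CD4cre in all 5 libraries but spread widely. *Nnat*, in the same 5 libraries, ran from 8959 to 10856 CPM. In the list of REST and its co-factors 1 of 8 genes tested was called lower in CD4IKK1Δ than in CD4NIKΔ, beside 18.5% of all genes tested, which was the histone deacetylase *Hdac1* at −3.01 (SE 0.26). The number was 2 without CD4IKK1Δ replicate 4 or without CD4NIKΔ replicate 1, and 3 with the replicate number as a block. Between CD4NIKΔ and CD4cre 2 of the 8 were called higher, beside 10.4% of all genes tested, which were *Hdac1* at 2.38 (SE 0.21) and the co-repressor *Rcor1* at 1.83 (SE 0.40), the latter named after its values were seen. The number called higher was 1 without CD4cre replicate 3, without CD4NIKΔ replicate 2 or without CD4NIKΔ replicate 3, and 3 without CD4cre replicate 1. The list summed to 250 to 273 CPM in CD4cre, 163 to 257 CPM in CD4IKK1Δ and 467 to 479 CPM in CD4NIKΔ. The part of the T cell content in these values, and any relation to the neuronal genes, was not tested.

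Markers of neuron types and brain regions were unevenly represented. Cortex and hippocampus genes summed to 799 to 989 CPM in CD4cre, 1042 to 1184 CPM in CD4IKK1Δ and 276 to 525 CPM in CD4NIKΔ, led by *Mef2c*, which lymphocytes also express, and by the cortical transcription factors *Neurod2* and *Fezf2*. *Neurod2* measured 75.5 to 110.2 CPM, 94.8 to 128 CPM and 21.8 to 51.5 CPM. Interneuron genes summed to 1602 to 1892 CPM, 1990.4 to 2935 CPM and 482 to 1080.1 CPM, of which *Cck* (cholecystokinin) held most and *Sst* (somatostatin) measured 128 to 152 CPM, 152 to 245 CPM and 40.6 to 80.5 CPM. Only 4 of these 12 genes had a mean of at least 10 CPM over all libraries. Neuroendocrine and pituitary genes, led by *Pcsk1n*, *Chgb* and *Scg2*, summed to 1863 to 2595 CPM, 2273 to 3013 CPM and 602 to 1257 CPM. Only 4 of these 8 genes had a mean of at least 10 CPM over all libraries, and 1 was at or under the floor in all. Of the genes tested, 11 of 12, 8 of 11 and 4 of 5 were called higher in CD4IKK1Δ than in CD4NIKΔ, and 5 of 9 striatal genes, while *Pvalb* (parvalbumin, also a gene of the distal tubule) at −8.58 (SE 1.43) and *Adora2a* (an adenosine receptor that T cells also use) at −2.93 (SE 0.62), both named after their values were seen, were called lower. The shares over all genes tested in this comparison were 14.8% called higher and 18.5% called lower, so that 1 of 11 interneuron and 1 of 9 striatal genes called lower lay below the share over all genes. Without CD4NIKΔ replicate 3 the numbers called higher were 7 for cortex and hippocampus, 5 for interneurons and 3 for striatum. Cerebellar genes summed to 142 to 187 CPM, 175 to 197 CPM and 56.1 to 92.6 CPM, with 3 of 4 called higher, beside the same 14.8%, and 0 without CD4NIKΔ replicate 2. Of the 10 cerebellar genes only 1, *Calb1*, had a mean of at least 10 CPM over all libraries, and 3 were at or under the floor in all.

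Genes of hypothalamus, peripheral nerve cells, hindbrain and retina were low. Hypothalamus and monoamine genes summed to 17.5 to 24.9 CPM in CD4cre, 16.2 to 31.0 CPM in CD4IKK1Δ and 10.4 to 14.2 CPM in CD4NIKΔ, with 2 of 8 called higher in CD4IKK1Δ than in CD4NIKΔ, beside 14.8% of all genes tested. That count was 1 without any 1 of CD4IKK1Δ replicates 3, 4 and 5 and CD4NIKΔ replicates 1 and 3, and 0 with the replicate number as a block. Peripheral, sympathetic and enteric neuron genes summed to 12.9 to 33.3 CPM in CD4cre, 10.6 to 15.1 CPM in CD4IKK1Δ and 6.42 to 24.1 CPM in CD4NIKΔ, and 3 of its 10 genes were at or under the floor in all libraries. None of 6 tested was called higher in CD4IKK1Δ than in CD4NIKΔ and 1 was called lower, the neuropeptide gene *Calca* at −5.02 (SE 1.36), a share near the 18.5% of all genes called lower. Hindbrain and spinal cord genes summed to at most 2.90 CPM in any library with none past the filter, and retina genes to at most 3.66 CPM. *Prph*, the intermediate filament of peripheral neurons, measured 3.11 to 10.46 CPM, 0 to 4.88 CPM and 0.635 to 2.83 CPM in the same order of groups.

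Markers of other cells moved with the neuronal genes or against them. Choroid plexus and ependyma genes, nearly all *Ttr* (transthyretin), summed to 868 to 963 CPM in CD4cre, 1051 to 1579 CPM in CD4IKK1Δ and 243 to 537 CPM in CD4NIKΔ, with 3 of 5 called higher in CD4IKK1Δ than in CD4NIKΔ, beside 14.8% of all genes tested. Astrocyte genes summed to 207 to 256 CPM, 259 to 330.4 CPM and 76.9 to 151 CPM, with 6 of 10 called higher, beside the same 14.8%. Oligodendrocyte genes summed to 722 to 884 CPM, 629 to 933 CPM and 433 to 755 CPM, so that all groups overlapped, with 4 of 9 called higher, beside 14.8%, and 1 lower, which is below the 18.5% of all genes called lower. Among them *Mbp* (myelin basic protein) measured 360.5, 428 and 533 CPM in CD4cre, 342, 527, 482, 567 and 566 CPM in CD4IKK1Δ and 288, 120.4 and 103 CPM in CD4NIKΔ, between 0.0382 and 0.0568 counts per *Nnat* count in all libraries, while *Cnp*, which lymphocytes also transcribe, went the other way at −3.10 (SE 0.20). Microglia genes stayed at 18.3 to 37.2 CPM, 24.4 to 41.05 CPM and 41.01 to 65.0 CPM, and Schwann cell genes at 7.87 to 12.4 CPM, 7.02 to 11.5 CPM and 13.3 to 26.6 CPM. Testis germ cell genes summed to at most 17.1 CPM.

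Kidney and myeloid markers, like the T cell genes, were lowest in CD4IKK1Δ. Kidney tubule genes summed to 19.9 to 95.1 CPM in CD4cre, 3.72 to 13.7 CPM in CD4IKK1Δ and 32.4 to 125 CPM in CD4NIKΔ, and myeloid genes to 230.2 to 724 CPM, 44.0 to 81.0 CPM and 417 to 569 CPM. For both lists all 5 CD4IKK1Δ libraries lay below all others, and CD4cre and CD4NIKΔ overlapped. Between CD4IKK1Δ and CD4NIKΔ, 14 of 15 T cell genes, 4 of 11 kidney tubule genes and 3 of 6 myeloid genes were called lower in CD4IKK1Δ, beside 18.5% of all genes tested. For kidney tubule genes the number was 2 without CD4NIKΔ replicate 3. Fewer T cell genes were called with the replicate number as a block, as given below. The summed T cell, astrocyte and choroid plexus genes did not overlap between any of the 3 groups, and kidney tubule and myeloid genes separated CD4IKK1Δ alone from the others. The part of these in the neuronal differences was not tested.

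**Figure D5:**
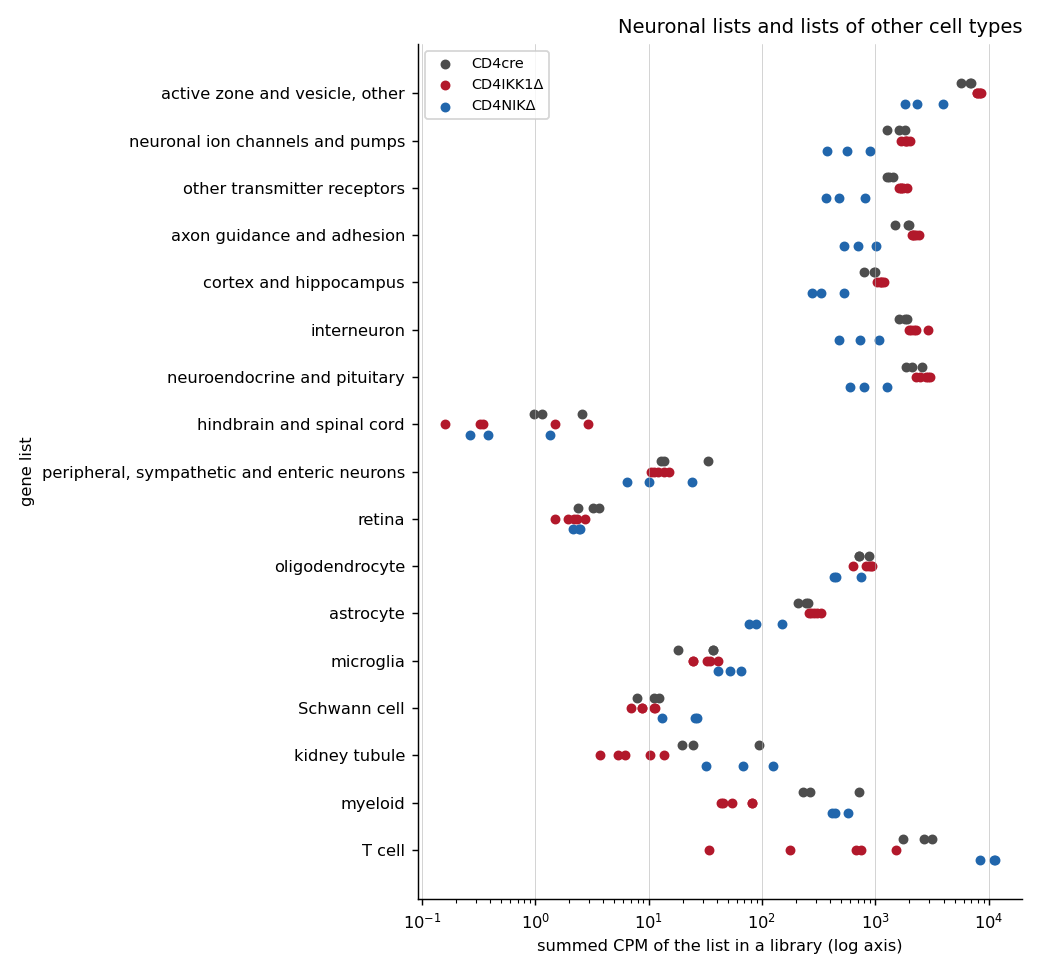
Summed CPM of each gene list in each library (1 point per library, log axis) for CD4cre, CD4IKK1Δ and CD4NIKΔ. Neuronal, cortical, interneuron, neuroendocrine and astrocyte lists lie lowest in CD4NIKΔ, hindbrain, peripheral neuron and retina lists lie under 33.3 CPM or at it, and the T cell list runs from 34.0 to 11358 CPM.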

How the data were processed

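RNA sequencing of renal CD4+ T cells gave 1 table of kallisto estimated counts, deposited by the authors with 1 column per library and 1 row per gene symbol. The reads had been trimmed with Trimmomatic. The study's methods name the assembly GRCm39, whereas the submitters' processing notes list mm10; the annotation and the strand setting are not given in the sources used here. Estimated counts were rounded, and levels are CPM of library totals of 15751632 to 25737046. No pair of libraries held identical values.

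The 41 members and all other lists were chosen with earlier results of these data known. All members, Celsr3, Rest, the 3 most abundant genes of each list and the 15 genes most like the summed members were named, except for items that are not reported here.

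Genes past filterByExpr were tested with edgeR 4.0.16 (TMM, robust quasi-likelihood F test, Benjamini-Hochberg, FDR under 0.05 and more than 2-fold) in R 4.3.3. Comparisons with CD4cre used the libraries of their own groups, and CD4IKK1Δ was compared with CD4NIKΔ in a fit of all 11. The fit was tested on simulated data. Standard errors are the size of the log2 fold change divided by the square root of F. Alternatives were DESeq2 1.42.0, other normalizations, filters and sets of libraries. Gene positions and transcript lengths came from GENCODE mouse release 39 on GRCm39, and promoters from RefSeq on GRCm38.p6, which holds no entry matched here for Camk2a, Grin2b, Gria1, Snap25, Vamp2, Stmn2, Gap43, Nefl, Nefm, Nefh and Mapt.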

Additional observations from a re-analysis of the deposited data

Results flagged for a closer look

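In the CD4IKK1Δ group, 5 of 44 levels examined had 1 library far from the other 4 by Dixon's test of the gap over the range, where chance gives about 1 in 20. *Camk2a* measured 4.61 CPM in replicate 2, against 0.293 to 0.724 CPM in the others, on few counts. *Nrgn* measured 139 CPM in replicate 5, against 102 to 109.7 CPM. Replicate 1, the library with the fewest T cell receptor counts, was apart in 3 genes. It was highest for *Stmn2* at 1191 CPM, against 965 to 1026 CPM, and for *Pcp4* at 568 CPM, against 331 to 373 CPM, and lowest for *Rbfox3* at 274 CPM, against 378 to 419 CPM. The part of the low T cell content of replicate 1 in these values was not tested.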

How the results depend on the processing

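The median log2 fold change of the members kept its direction in all 3 comparisons under every alternative run, and 23 values of single members moved by more than their spread while 1625 did not. Between CD4IKK1Δ and CD4cre no gene was called by edgeR, and 2592 had an unadjusted p under 0.05. The number was 552 with DESeq2, 1 with RLE factors, 48 with a filter of at least 1 count in any library and 129 in a fit of all 11 libraries. Omitting each library once gave 0 to 23, with 2 without CD4cre replicate 3, and 4, 9 and 23 without CD4IKK1Δ replicates 1, 3 and 4. It was 36 without both CD4IKK1Δ replicates 1 and 2, an alternative chosen after seeing the data. Members called stayed at 0 in each. Between CD4NIKΔ and CD4cre 2649 genes and 22 members were called. Leaving out each library gave 674 to 3468 genes and 0 to 29 members, with 1001 genes without CD4cre replicate 2, 859 without CD4cre replicate 3, 918 without CD4NIKΔ replicate 2 and 674 without CD4NIKΔ replicate 3. Between CD4IKK1Δ and CD4NIKΔ the members called stayed between 27 and 29. Over all genes the number called higher ran from 1720 of 17495 tested without CD4NIKΔ replicate 3 to 2747 of 16546 with library size alone. The members' median ran from 1.28 to 1.85, the highest without CD4NIKΔ replicate 1. Library size alone in place of TMM moved the median of all genes to −0.15 and that of the members to −1.30 for CD4NIKΔ against CD4cre, and to 0.16 and 1.59 for CD4IKK1Δ against CD4NIKΔ. Without *Nnat* the mean share was 2.65% in CD4cre and 3.25% in CD4IKK1Δ. The causes of these changes were not tested.

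Deviations of same-numbered libraries correlated at −0.0890 to 0.0772, which gave no sign of a pairing by replicate number but cannot exclude one. With the number as a replicate block, 3 genes were called between CD4IKK1Δ and CD4cre. Between CD4NIKΔ and CD4cre 1185 of 15209 genes tested (995 higher and 190 lower) and 5 members were called. Between CD4IKK1Δ and CD4NIKΔ 27 members were called, beside 2193 of 16546 genes tested called higher and 2801 called lower. In the last comparison the block gave 0 of 8 hypothalamus and monoamine genes called higher in place of 2. It gave 3 of 8 genes of the REST list and 8 of 15 T cell genes called lower in place of 1 and 14, beside the 2801 of 16546 over all genes. Between CD4NIKΔ and CD4cre it left 1 to 4 genes called lower in each of the 5 lists of other neuronal genes. Depth limits the 9 members with a mean under 10 CPM, for which differences within the spread were not detectable.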

Other observations

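Genes outside all lists whose level followed the summed neuronal transcripts over the 11 libraries were ranked by Pearson's r of log2 CPM among 8383 genes. Among the 15 highest were *Ctxn1*, *Ccdc85b*, *Tagln3*, *Arhgdig*, *Ap1s1*, *Tpi1*, *Rprml*, *Fbxw7*, *Atp6v1g2*, *Rtl8c*, *Cpe*, *Scg5*, *Ppp3ca* and *Stum*, with r from 0.997 to 0.999. *Ctxn1*, which encodes the neuronal membrane protein cortexin, had means of 1686 CPM in CD4cre, 1998 CPM in CD4IKK1Δ and 639.9 CPM in CD4NIKΔ. *Tpi1*, a glycolytic enzyme of all cells, had 1869 CPM, 2239 CPM and 903 CPM. Likeness of this kind was common: 24.1% of 8550 genes ranked had an r of at least 0.9, and so did 25 of the 32 members that had a mean of at least 10 CPM and are themselves part of the sum. The points share library and group, and carry no p.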
